A study of Homo sapiens with 4 samples.

Results

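The BCL2 family decides whether a cell under stress opens its mitochondria and dies. The genes described here are the 10 members MCL1, BCL2, BCL2L1, BAX, BAK1, BCL2L11, BID, BIK, BBC3 and PMAIP1, chosen by name, out of 26485 gene identifiers in the deposited tables. Each had 1 row in each of the 4 tables. By role they are 3 survival genes (MCL1, BCL2 and BCL2L1), 2 effector genes (BAX and BAK1) and 5 genes of the BH3-only class (BCL2L11, BID, BIK, BBC3 and PMAIP1).

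Survival proteins hold the effectors in check at the outer mitochondrial membrane. BH3-only proteins carry a short helix, the BH3 domain, that fits into a groove of the survival proteins and can displace the effectors or activate them directly. Freed BAX and BAK1 form pores through which cytochrome c leaves, and the caspases that dismantle the cell follow. Many cancers lean on one survival protein, often MCL1 or BCL-XL (the long product of BCL2L1), and drugs that mimic the BH3 domain act there.

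The mRNA came from SW1736 and 8505C, established lines from anaplastic thyroid cancer, an undifferentiated and aggressive tumor. The 4 groups were SW1736 with 1.5 µM DHT, SW1736 with DMSO, 8505C with 1.5 µM DHT and 8505C with DMSO, all for 24 h. DHT here is dihydrotanshinone, a diterpene quinone of Salvia root, and DMSO is its solvent. The labels do not say how many cultures stood behind a group. Each group had 1 library, so the differences within a line have no replicate check, and they are given as descriptions. Levels are TPM as the authors deposited them, a share of all transcripts after scaling for length, so levels of different genes can be set side by side within a library. Folds are differences of log2(TPM + 1), DHT minus DMSO, and a gene was called when it was at least 2-fold apart, that is, past 1 on that scale.

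Aligned depth, read from the ratio of coverage to FPKM, lay between 3.27 and 4.15 Gb per library, and read counts are not known. Protein-coding genes averaging 1 TPM or more were tested (11691 genes), and their median log2 fold was -0.42 in SW1736 and -0.03 in 8505C, so most SW1736 mRNAs shared a displacement that the folds below carry. Of 8 thyroid markers 4 reached a mean of 1 TPM, and TSHR, the thyrotropin receptor gene, was listed at 0 in all 4 libraries. The thyroid factor gene FOXE1 stood at 22.3 TPM in SW1736 with DHT and 60.6 TPM with DMSO, and at 0 and 0.101 TPM in 8505C. NKX2-1 stood at 174.1 TPM in 8505C with DHT and 69.8 TPM with DMSO, and was listed at 0 in both SW1736 libraries. PAX8 stood at 116.6 TPM in SW1736 with DHT and 87.1 TPM with DMSO, and at 0.240 and 0.282 TPM in 8505C. Only HHEX was present in both lines, at 33.3 and 28.3 TPM in SW1736 and 13.5 TPM in each 8505C library. KRT7, KRT8 and KRT18 were abundant, KRT19 stood at 883.3 TPM in SW1736 with DHT and 606.7 TPM with DMSO and was listed at 0 in 8505C, whereas the epithelial markers CDH1 and EPCAM stayed under 0.2 TPM. All 4 mesenchymal markers reached a mean of 1 TPM, led by VIM, with sums of 14458 and 11418 TPM in SW1736 with DHT and DMSO and 4353 and 3533 TPM in 8505C, and COL1A1 stood at 146.02 TPM in SW1736 with DHT and 349.9 TPM with DMSO. Of 8 blood cell markers 2 reached a mean of 1 TPM (CD14 and CD68), and the lymphocyte genes CD3E and MS4A1 were listed at 0 in all 4. Of 4 endothelial markers 2 reached a mean of 1 TPM. These, CDH5 and TIE1, were present in 8505C and listed at 0 in both SW1736 libraries. PECAM1 stood at only 0.207 and 0.175 TPM in 8505C with DHT and DMSO, and VWF was listed at 0 in both 8505C libraries. The summed blood markers were 23.2 and 15.4 TPM in SW1736 with DHT and DMSO, and 68.7 and 51.7 TPM in 8505C, most of it CD68 (19.96, 13.3, 65.3 and 49.6 TPM in the same order). The part of these markers in the results below was not tested.

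With DHT, SW1736 cells had less MCL1 mRNA and more PMAIP1 and BBC3 mRNA, while the effector genes BAX and BAK1 stood at nearly the same level. In 8505C none of the 10 genes differed by 1.5-fold on the log2(TPM + 1) scale, beside 1.8% of all genes tested. Of the 9 members that reached a mean of 1 TPM, 2 were at least 2-fold higher and 1 was at least 2-fold lower in SW1736, beside 2.75% of all genes tested higher and 15.6% lower (18.3% in either direction). Centred on the median fold, 3 were higher and 1 was lower, beside 4.74% and 4.07% of all genes. In 8505C 0 of 9 were called, beside 0.445% of all genes tested. BIK was the member below the level filter. The median log2 fold of the 9 was -0.01 in SW1736 and 0.04 in 8505C. In bulk RNA, less mRNA per cell and fewer cells that carry it cannot be told apart.

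**Figure D1:**
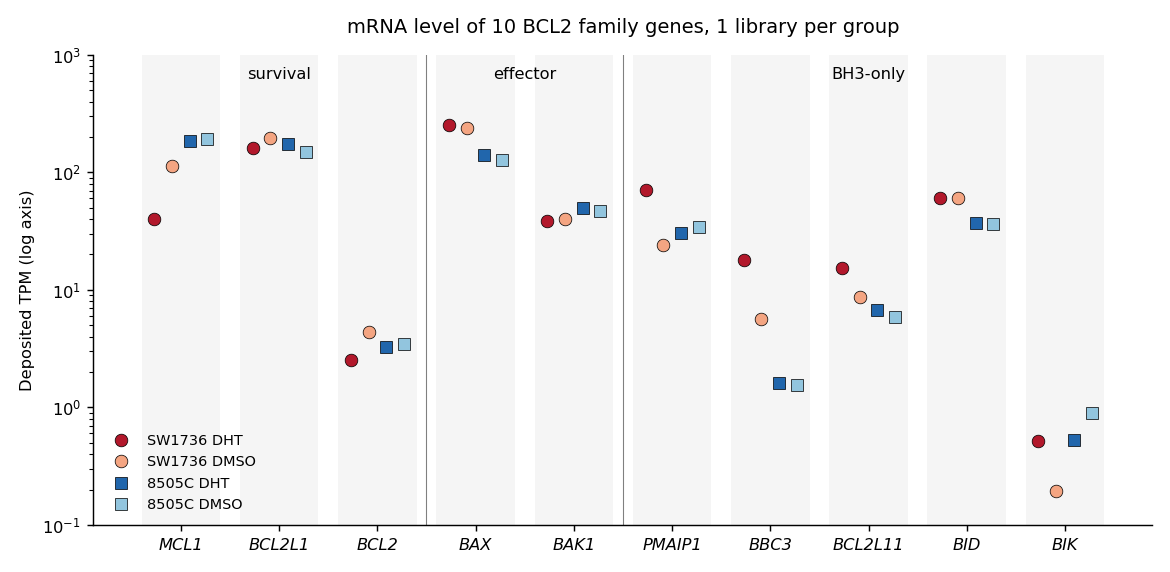
Deposited TPM (log axis) of the 10 members, with 1 point per library and members grouped by role; circles are SW1736 and squares 8505C, and DHT stands left of DMSO in each line. MCL1 is lowest in SW1736 with DHT (40.4 TPM), PMAIP1 and BBC3 are highest there (70.2 and 17.9 TPM), and the 8505C pairs lie close together apart from BIK.

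MCL1 encodes a survival protein with a short half-life that binds BAK1, BIM and NOXA among others (chromosome 1, 150574551 to 150579738, minus strand of hg38). It stood at 40.4 TPM in SW1736 with DHT, against 113.7 TPM with DMSO. In 8505C it stood at 185.8 TPM with DHT, against 192.04 TPM with DMSO. The treated SW1736 library was thus the low one, and among untreated lines 8505C had 1.69 times the level of SW1736. The log2 fold was -1.47 in SW1736, lower than in all but 3.5% of genes tested, and -0.05 in 8505C. Centred on the median fold of genes at 5 TPM or more (-0.43), MCL1 was at -1.04 in SW1736. After regression of the folds on the length, GC content and level of the mRNAs it was at -0.95, short of 2-fold. Another gene, ADAMTSL4-AS1, overlaps MCL1 by 2 bases and stood at most at 0.341 TPM.

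BCL2L1, whose long product BCL-XL guards mitochondria in many epithelial tumors, was the most abundant survival mRNA in SW1736. It stood at 162.5 TPM in SW1736 with DHT and 194.1 TPM with DMSO, and at 173.6 TPM in 8505C with DHT and 148.2 TPM with DMSO. The log2 folds were -0.26 in SW1736 and 0.23 in 8505C, both well short of 2-fold. An antisense long non-coding gene, ABALON, overlaps BCL2L1 by 1347 bases. ABALON stood at 24.1 TPM in SW1736 with DHT against 60.3 TPM with DMSO, and at 42.1 TPM in 8505C with DHT against 64.4 TPM with DMSO. Whether counting used strand is not given in the sources used here, so reads of this pair may not be separate. The tables also sum over isoforms, and the long and short products of BCL2L1, which act in opposite directions, are not told apart.

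BCL2, the founding member and the target of venetoclax, was scarce in all 4 libraries. It stood at 2.55 TPM in SW1736 with DHT and 4.36 TPM with DMSO, and at 3.27 TPM in 8505C with DHT and 3.48 TPM with DMSO. Its log2 fold of -0.59 in SW1736 was close to the median of all genes there, and after the same regression it was 0.12.

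The effectors, with BID, lay closest to no difference in SW1736 in TPM as deposited, whereas centred on the median fold BCL2 (-0.16) and BCL2L1 (0.17) did, with BAK1 at 0.35, BID at 0.42 and BAX at 0.51. BAX, which moves from the cytosol into the mitochondrial membrane on activation, stood at 254.6 TPM in SW1736 with DHT and 239.8 TPM with DMSO. In 8505C it stood at 140.2 TPM with DHT and 126.4 TPM with DMSO. BAK1, the effector that resides in the membrane, lay between 38.3 and 49.9 TPM over the 4 libraries. The log2 folds were 0.09 for BAX and -0.07 for BAK1 in SW1736, and 0.15 and 0.10 in 8505C. In TPM, BAX was the most abundant of the 10 mRNAs in both SW1736 libraries, and MCL1 in both 8505C libraries. The order of genes depends on the measure. In mean reads per base, BCL2L1 stood above BAX in SW1736, at 318.5 and 314.2 with DHT and 311.6 and 245.3 with DMSO.

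**Figure D2:**
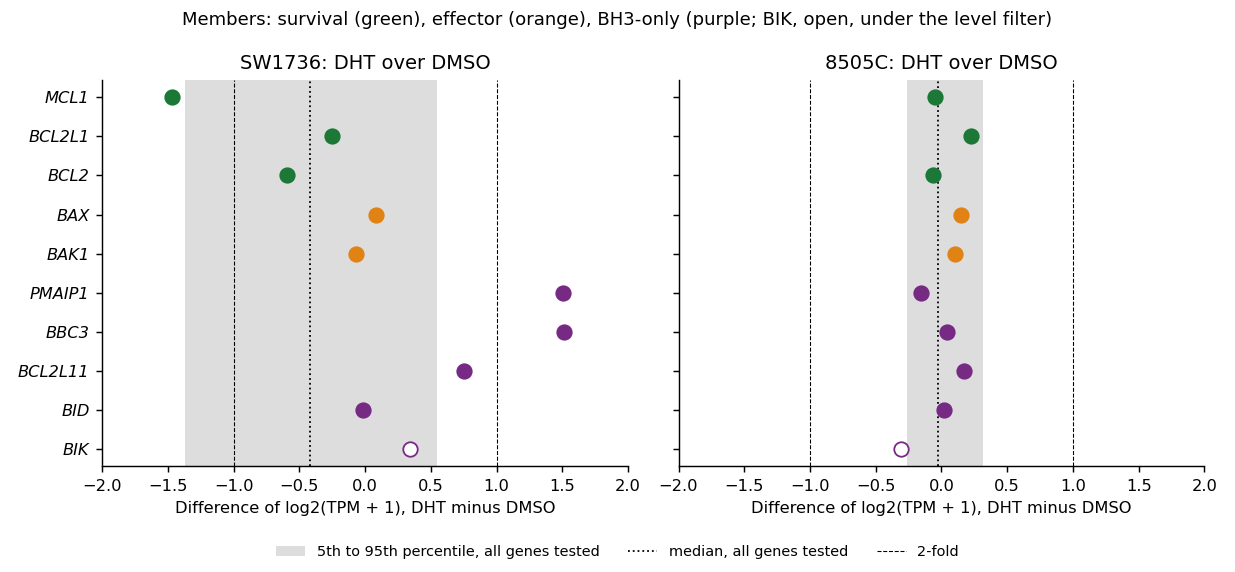
Difference of log2(TPM + 1), DHT minus DMSO, for each member in SW1736 (left) and 8505C (right); the grey band spans the 5th to 95th percentile of all genes tested, the dotted line is their median and dashed lines mark 2-fold. In SW1736 MCL1 lies below the band, which ends at -1.37, and PMAIP1, BBC3 and BCL2L11 lie above it, beyond 0.55, whereas in 8505C only BIK, drawn open because it was under the level filter, lies outside the band.

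PMAIP1 encodes NOXA, a small BH3-only protein that binds MCL1 in preference to the other survival proteins and promotes its destruction (chromosome 18, 59899960 to 59904306, plus strand). It stood at 70.2 TPM in SW1736 with DHT, against 24.1 TPM with DMSO. In 8505C it stood at 30.5 TPM with DHT, against 34.1 TPM with DMSO. The treated SW1736 library was the high one, at 2.91 times its control in TPM. The log2 fold of 1.50 exceeded that of 98.4% of genes tested in SW1736, and the value in 8505C was -0.16.

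BBC3 encodes PUMA, a BH3-only protein that binds all the survival proteins (chromosome 19, 47220822 to 47232766, minus strand). It stood at 17.9 TPM in SW1736 with DHT, against 5.62 TPM with DMSO. In 8505C it stood at 1.62 TPM with DHT, against 1.54 TPM with DMSO. The log2 fold was 1.51 in SW1736, again above 98.4% of genes, and 0.04 in 8505C.

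BCL2L11 encodes BIM, an activator of BAX and BAK1 that links loss of growth signals to death (chromosome 2, 111120914 to 111168445, plus strand). It stood at 15.5 TPM in SW1736 with DHT, against 8.77 TPM with DMSO, and at 6.74 TPM in 8505C with DHT, against 5.89 TPM with DMSO. The log2 fold of 0.75 in SW1736 did not reach 2-fold but exceeded that of 96.4% of genes, and centred on the median it was 1.18. In 8505C it was 0.17.

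BID and BIK completed the class. BID, which caspase-8 cleaves to carry a death receptor signal to mitochondria, stood at 60.3 TPM in SW1736 with DHT and 60.8 TPM with DMSO, and at 36.7 TPM in 8505C with DHT and 36.3 TPM with DMSO. Its log2 folds were -0.01 and 0.02. BIK, a BH3-only protein of the endoplasmic reticulum, was very low. It stood at 0.517 TPM in SW1736 with DHT and 0.196 TPM with DMSO, and at 0.530 TPM in 8505C with DHT and 0.893 TPM with DMSO. The mean depth behind these values was 0.315 to 1.27 reads per base of the gene, so the differences of BIK are not read.

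The promoters of PMAIP1, BBC3 and BCL2L11 are shown because the log2 folds of these genes in SW1736 exceeded those of most genes tested. RefSeq (GRCh38.p14) windows from 250 bases before to 50 after a start were present for 8 of the 10 members. In the sequences below only the bases before the outermost annotated start are given, 5′ to 3′ on the strand of the gene, and capitals mark matches to the motifs searched on both strands. These are chr18:59899746-59899959, plus strand, for PMAIP1, chr19:47232861-47232917, minus strand, for BBC3 and chr2:111120664-111120913, plus strand, for BCL2L11.
PMAIP1: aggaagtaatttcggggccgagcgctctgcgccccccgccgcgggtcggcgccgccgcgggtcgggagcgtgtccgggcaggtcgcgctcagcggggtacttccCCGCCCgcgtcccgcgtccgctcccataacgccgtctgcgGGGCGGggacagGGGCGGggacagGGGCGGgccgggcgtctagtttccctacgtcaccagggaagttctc
BBC3: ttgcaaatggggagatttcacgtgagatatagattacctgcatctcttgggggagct
BCL2L11: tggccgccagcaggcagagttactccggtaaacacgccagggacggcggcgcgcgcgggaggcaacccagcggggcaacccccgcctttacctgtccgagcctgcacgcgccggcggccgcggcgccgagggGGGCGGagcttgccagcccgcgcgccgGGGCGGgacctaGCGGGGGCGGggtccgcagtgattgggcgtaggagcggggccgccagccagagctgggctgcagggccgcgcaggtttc

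The matches in PMAIP1 were 4 GC boxes (GGGCGG), which began 110, 70, 58 and 46 bases before the start. The 57 bases of BBC3 before its outermost start held no match. BCL2L11 had 3 GC boxes, at 118, 91 and 75 bases, and 1 EGR motif (GCGNGGGCG) at 79 bases that overlaps the last of them. GC boxes were found in 45.0% of 35116 windows in the genome and in 6 of the 8 members with a window, and the EGR motif in 9.43% of windows and in 2 members (BAX and BCL2L11). The CRE motif (TGACGTCA, 1.85% of windows) and the CHOP-ATF4 motif (TGATGNAA, 3.62%) were in no window of the members. The AP-1 motif (TGANTCA, 7.71%) was in the full BBC3 window but not in the 57 bases shown, and the HSE motif (GAANNTTC, 6.77%) in the BAK1 window. A match describes letters and not binding.

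Because all members of a library share its scaling, the makeup of the family was compared next. The 10 mRNAs summed to 662.7 TPM in SW1736 with DHT and 691.8 TPM with DMSO, and to 628.8 TPM in 8505C with DHT and 595.4 TPM with DMSO. The total was thus similar, and its parts differed. Survival genes made up 31.0% of the family in SW1736 with DHT, against 45.1% with DMSO. BH3-only genes made up 24.8% with DHT, against 14.4% with DMSO, and effectors 44.2% and 40.5%. In 8505C the survival share was 57.7% in both libraries, the BH3-only share was 12.1% with DHT and 13.2% with DMSO, and the effector share was 30.2% and 29.04%. MCL1 alone held 6.10% of the family in SW1736 with DHT and 16.4% with DMSO, and PMAIP1 held 10.6% and 3.48%.

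**Figure D3:**
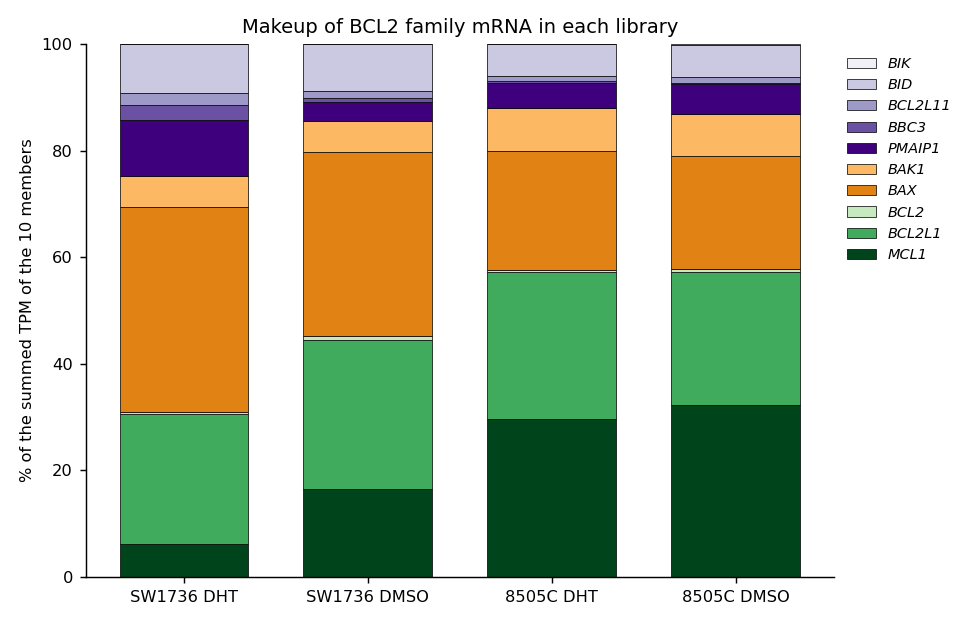
Share of each member in the summed TPM of the 10 members, 1 bar per library, with survival genes in green, effectors in orange and BH3-only genes in purple. The green part is 31.0% in SW1736 with DHT against 45.1% with DMSO, and 57.7% in both 8505C libraries.

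Ratios to MCL1 put the same values pairwise, and they do not depend on the scaling of a library. They share the MCL1 value as denominator, so a low MCL1 level raises all of them and they are no separate evidence. The TPM of PMAIP1 was 1.74 times that of MCL1 in SW1736 with DHT, against 0.212 times with DMSO, an 8.18-fold difference. The BBC3 to MCL1 ratio was 0.443 with DHT and 0.0494 with DMSO, which differ 8.95-fold, and the BCL2L11 to MCL1 ratio was 0.383 and 0.0771, which differ 4.96-fold. The order of the genes differed too, since PMAIP1 exceeded MCL1 in the treated SW1736 library and in no other. In 8505C these ratios with DHT were 0.924, 1.09 and 1.18 times those with DMSO. For BAX to BCL2, a ratio often quoted in apoptosis work, the values were 99.7 in SW1736 with DHT and 54.98 with DMSO, and 42.8 in 8505C with DHT and 36.3 with DMSO. The BAX to BCL2 ratio in SW1736 rests on 2.55 and 4.36 TPM of BCL2.

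**Figure D4:**
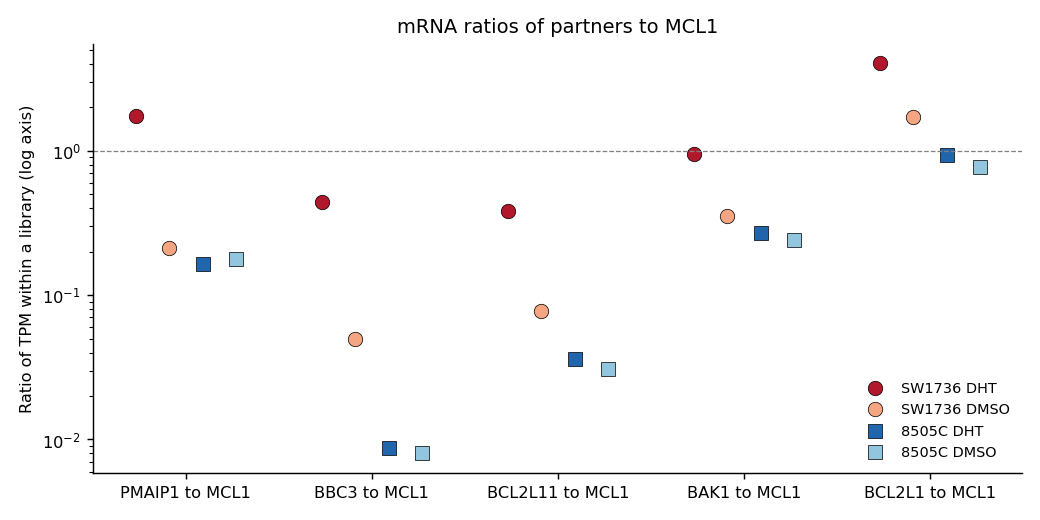
Ratio of the TPM of 5 partners to that of MCL1 within each library (log axis); circles are SW1736 and squares 8505C, with DHT left of DMSO. SW1736 with DHT stands highest for each pair, and PMAIP1 exceeds MCL1 (ratio over 1) there only. All 5 ratios share the MCL1 value, which was lowest in that library, so the pairs are not independent. BCL2L1, itself lower with DHT in SW1736, has a ratio of 4.02 with DHT and 1.71 with DMSO in that line.

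The untreated lines were compared as the background to the treatment. Of the 9 members tested 1 was at least 2-fold apart, beside 22.6% of all genes: BBC3, at 1.54 TPM in 8505C and 5.62 TPM in SW1736 with DMSO (log2 fold -1.38, 8505C minus SW1736). BAX was at -0.92 (126.4 TPM in 8505C and 239.8 TPM in SW1736), BID at -0.73 and MCL1 at 0.75 (192.04 and 113.7 TPM). With DHT the lines stood further apart, with 1 member at least 2-fold higher and 3 lower in 8505C, beside 24.7% of all genes higher and 10.6% lower. These were MCL1 at 2.17, and BBC3 at -2.85, PMAIP1 at -1.18 and BCL2L11 at -1.09. Centred on the median fold, 1 was higher and 5 were lower, beside 14.4% and 16.3% of all genes. The comparisons between lines use the same libraries as those within lines, so they are no separate evidence.

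A limma fit with both lines as replicates of the treatment, which asks for a change common to them, called 0 of 9 members at an adjusted p of 0.05, beside 1.0% of all genes. At an unadjusted p under 0.05 it held 2 of 9, MCL1 and PMAIP1, beside 6.74% of all genes. MCL1 had a mean log2 fold of -0.76 ± 0.23 (SE) with a limma adjusted p of 0.0975. That mean joins -1.47 in SW1736 and -0.05 in 8505C and describes neither line. After regression of the folds on mRNA properties the 8505C value was 0.04. PMAIP1 had 0.67 ± 0.34 (limma adjusted p 0.738), higher with DHT in 1 of 2 lines. The prior degrees of freedom were infinite in this fit, so these errors come from the spread over genes and not from the disagreement of the lines. The difference in response between the lines could not be tested with 1 library per group.

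Other genes of mitochondrial and receptor apoptosis were read from 7 lists with 65 genes, 55 of them at a mean of 1 TPM or more. In SW1736, 4 of the 55 (7.27%) were at least 2-fold higher with DHT and 9 (16.4%) at least 2-fold lower, beside the 2.75% and 15.6% of all genes. In 8505C 0 were called in either direction, beside 0.445% of all genes. Centred on the median fold, 8 were higher and 2 lower in SW1736, beside the 4.74% and 4.07% of all genes.

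Among the other BCL2 relatives, 1 of 8 was at least 2-fold higher in SW1736 and 0 were lower, beside 2.75% and 15.6% of all genes. BNIP3, a mitophagy receptor known for its response to hypoxia, stood at 259.3 TPM with DHT and 106.4 TPM with DMSO (log2 fold 1.28). BAD, a BH3-only gene regulated by phosphorylation, stood at 106.2 and 107.5 TPM, and BCL2L2, a survival gene, at 26.9 and 30.2 TPM. BCL2A1, a survival gene of blood cells, was at 0.172 TPM in SW1736 with DHT and listed at 0 with DMSO. In 8505C it stood at 2.63 TPM with DHT and 3.15 TPM with DMSO.

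Of 13 apoptosome and caspase genes 4 were at least 2-fold lower in SW1736 with DHT, beside 15.6% of all genes. None was higher, beside 2.75%, and the median log2 fold was -0.65, against -0.42 over all genes tested. APAF1, the scaffold of the apoptosome, stood at 4.52 TPM with DHT and 12.3 TPM with DMSO (-1.27). CASP8, the initiator caspase of death receptors, was at -1.39, CASP2 was at -1.28 and CASP10 at -1.32. Centred on the median fold 0 of the 13 were 2-fold lower and 1 was higher, beside 4.07% and 4.74% of all genes. CYCS, which encodes cytochrome c, was at -0.33.

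Of 5 inhibitors of apoptosis tested 1 was called each way in SW1736, beside 2.75% of all genes higher and 15.6% lower. BIRC3, an NF-kB-responsive ubiquitin ligase, stood at 8.04 TPM with DHT and 2.59 TPM with DMSO (1.33). BIRC6, a giant member of the class, stood at 3.43 and 9.98 TPM (-1.31). XIAP, which blocks caspases directly, was at 0.92. Centred on the median fold 2 of the 5 were at least 2-fold higher and 0 lower, beside 4.74% and 4.07% of all genes, with BIRC6 at -0.88.

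In the death receptor list 2 of 9 genes were at least 2-fold lower in SW1736 with DHT, beside 15.6% of all genes. FADD, the adaptor between receptors and caspase-8, stood at 21.5 TPM with DHT and 83.1 TPM with DMSO (-1.90). TNFSF10, the ligand TRAIL, stood at 3.43 and 10.9 TPM (-1.42). Centred on the median fold 1 of the 9 was 2-fold lower, beside 4.07% of all genes, with FADD at -1.47 and TNFSF10 at -0.997. The receptor genes TNFRSF10B and FAS were at 0.15 and -0.08. None of the 6 mitochondrial partners was called, beside 18.3% of all genes in either direction. VDAC2, a channel that holds BAK1, was at 0.12.

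Of 5 genes for MCL1 protein turnover, HUWE1 and BTRC were at least 2-fold lower in SW1736 with DHT, beside 15.6% of all genes. HUWE1, a ubiquitin ligase for MCL1, stood at 24.9 TPM with DHT and 73.4 TPM with DMSO (-1.52), and BTRC was at -1.06. Centred on the median fold HUWE1 was at -1.09 and BTRC at -0.63. USP9X, a deubiquitinase that stabilizes MCL1, was at -0.49, and FBXW7 at -0.10. Of 9 regulators of BH3-only genes 2 were at least 2-fold higher, beside 2.75% of all genes. ATF3 stood at 160.7 TPM with DHT and 5.20 TPM with DMSO (4.71), and DDIT3, the stress factor CHOP, at 116.1 and 14.6 TPM (2.90). DDIT3 overlaps the gene MARS by 68 bases on the other strand. FOXO3, a factor that can drive BCL2L11, was at 0.96, ATF4 at 0.82 and MDM2 at 0.25. Centred on the median fold FOXO3 was at 1.39 and ATF4 at 1.25. By that measure 4 of the 9 regulators were at least 2-fold higher, beside 4.74% of all genes.

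**Figure D5:**
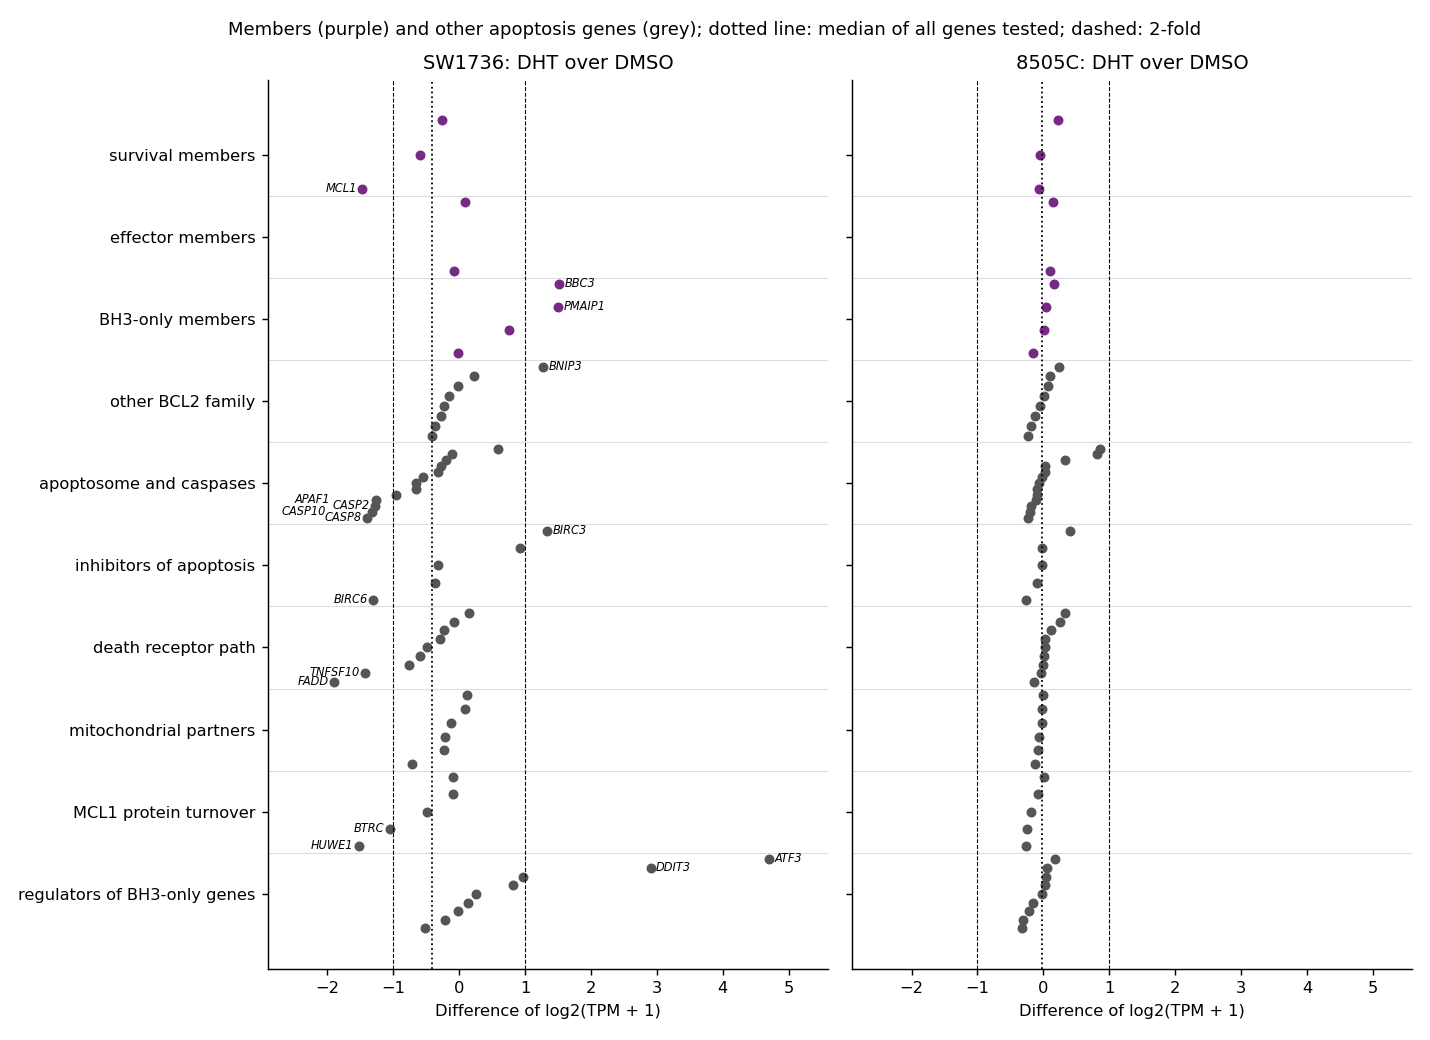
Difference of log2(TPM + 1), DHT minus DMSO, for members (purple) and genes of 7 other apoptosis lists (grey) with a mean of at least 1 TPM, in SW1736 (left) and 8505C (right); dashed lines mark 2-fold and the dotted line is the median of all genes tested. ATF3 and DDIT3 lie farthest to the right in SW1736 at 4.71 and 2.90, FADD farthest to the left at -1.90, and no gene passes 2-fold in 8505C.

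The genes whose profile over the 4 libraries lay nearest to a member were looked up for the 3 members with the widest range. The measure was the Euclidean distance between centred log2(TPM + 1) profiles, over 4 libraries and 9737 other protein-coding genes of at least 5 TPM. For BBC3 they were NR1D1 (distance 0.10), CIART (0.18) and ZNF92 (0.19). NR1D1 stood at 61.96 TPM in SW1736 with DHT and 22.8 TPM with DMSO, and at 8.08 TPM in 8505C with DHT and 7.38 TPM with DMSO. For MCL1 they were ITPRIPL2 (0.04), MGAT5 (0.06) and SMARCAD1 (0.07), and for PMAIP1 they included KDM3A (0.09) and INSIG1 (0.10). With 4 libraries many profiles lie close to each other, and nearness is a description only.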

How the data were processed

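Per the labels' protocols, libraries were made from 1 µg of total RNA with the Universal Plus mRNA-Seq kit. The submitters' processing notes name bcl2fastq 2.20, StringTie and hg38. For aligner and annotation, nothing is given in the sources used here. The authors deposited 1 gene table per library with TPM, FPKM and coverage, per the file headers. TPM as deposited sums to 1000000 per library, so a gain of abundant mRNAs lowers all others. FPKM as deposited is scaled by fragments and length, and coverage as deposited is mean read depth per base.

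Rows were summed per identifier (1446 had several rows). Of 26485 identifiers 25320 matched a RefSeq or GENCODE gene, and 11691 protein-coding genes reached a mean of 1 TPM. Folds used a pseudocount of 1. The limma fit (limma 3.58.1, R 4.3.3, trend, two-sided, Benjamini-Hochberg over all genes) was tested on simulated data and has 1 residual degree of freedom. Other steps used Python 3.11.15, pandas 2.3.3 and numpy 2.4.6.

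Members and lists were chosen with earlier results of these data known. Named beside the members were up to 4 genes per list, the largest in either line among those at least 2-fold apart, and the 3 nearest profiles of the 3 widest-ranging members; genes named below 2-fold (BAD, BCL2L2, BCL2A1, CYCS, XIAP, DIABLO, TNFRSF10B, FAS, VDAC2, USP9X, FBXW7, FOXO3, ATF4, MDM2) were chosen for their role or value after values were seen. A few genes that this rule names are not reported here. Alternatives were other pseudocounts, filters, a 1.5-fold threshold, FPKM, centring, the highest row per gene and, added after the data were seen, coverage and regression of the folds on length, GC content and level of the mRNAs, for 11327 genes with GENCODE 29 transcripts.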

Additional observations from a re-analysis of the deposited data

Results flagged for a closer look

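With DHT, 5 members differed in opposite directions in SW1736 and 8505C, and the difference was not tested because each group had 1 library. Of all genes tested, 20.8% were above 0 in SW1736 and 42.1% in 8505C. The share of all genes with opposite signs was not computed, so the count of 5 is not read as a trait of the family. PMAIP1 was at a log2 fold of 1.50 in SW1736 and -0.16 in 8505C. BIK was at 0.34 and -0.31, on levels under 1 TPM. BCL2L1 was at -0.26 and 0.23, BAK1 at -0.073 and 0.10, and BID at -0.013 and 0.016. Of these only PMAIP1 was 2-fold in either line. Relative to the median fold of each line (-0.43 in SW1736 and -0.03 in 8505C), BCL2L1, BAK1 and BID had the same sign in both.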

How the results depend on the processing

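The count of 3 members at least 2-fold apart in SW1736 was 3 or 4 under 9 of 10 alternatives, beside 7.8% to 24.4% of all genes. With a 1.5-fold threshold it was 5, beside 42.9% of all genes. MCL1, BBC3 and PMAIP1 were the 3 under each of the others except centring, which added BCL2L11, and the regression on mRNA properties, under which BCL2L11 replaced MCL1. In 8505C the count was 0 under all 10, beside 0.222% to 1.8% of all genes. Between untreated lines the count of 1 was 0 with a pseudocount of 5 (beside 13.7% of all genes) and 4 with a 1.5-fold threshold (beside 43.1%). The limma count of 0 was 0 under all 6 alternatives, beside 0.0171% to 1.15% of all genes. At an unadjusted limma p under 0.05 these fits held 0 to 3 members, beside 4.6% to 6.93% of all genes. The adjusted p of MCL1 in limma lay between 0.0792 and 0.811 over the 7 fits. The survival share was also taken without the member of highest TPM (BAX in SW1736, MCL1 in 8505C). It was then 50.3% in SW1736 with DHT and 69.1% with DMSO, and 39.9% in 8505C with DHT and 37.6% with DMSO. Leaving out a replicate was impossible with 1 library per group. The limma fit pairs DHT with DMSO by cell line, and no other pairing was made because the labels give no replicate numbers. Read counts are unknown, so no counting error is given. Genes of low depth are the least certain: BIK, BCL2, BCL2L11, and BBC3 in 8505C. Mean reads per base were 2.62 and 1.93 for BBC3 in 8505C with DHT and DMSO. They were 1.95 to 6.17 for BCL2L11 and 3.03 to 5.00 for BCL2 over all libraries.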

Other observations

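A few neighbours of the family, chosen after their values were seen, had the same direction in both lines. DIABLO, whose product SMAC relieves caspases of XIAP, stood at 42.02 TPM in SW1736 with DHT against 27.6 TPM with DMSO, and at 46.02 TPM in 8505C with DHT against 24.9 TPM with DMSO (log2 folds 0.59 and 0.86). XIAP itself stood at 15.9 TPM in SW1736 with DHT against 7.90 TPM with DMSO, and at 9.16 TPM in 8505C with DHT against 6.66 TPM with DMSO (0.92 and 0.41). ABALON, antisense to BCL2L1, was at -1.29 in SW1736 and -0.60 in 8505C. None of the DIABLO and XIAP differences reached 2-fold on the log2(TPM + 1) scale, though centred on the median fold DIABLO was at 1.02 and XIAP at 1.35 in SW1736, and they have no replicate check.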
